A study of Mus musculus with 20 samples.

Results

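The enhancers described here lie in a stretch of mouse chromosome 11 that holds the Cd300 gene family. They are the 28 of 11222 enhancers in the deposited table whose midpoint falls on chromosome 11 between 114000000 and 115100000 (mm39), and are named E1 to E28 in their order along the chromosome. Membership was set by position alone, but the stretch itself was chosen by its levels in these libraries, which were known to fall on stimulation; its calls are therefore given as a description. The assay was nAnT-iCAGE, which sequences the capped 5' ends of RNA with no PCR step and counts them as tags. The cells were macrophages derived with M-CSF from C57BL/6 bone marrow. The 10 groups of 2 libraries were unstimulated cells (0 h) and cells given IFN-γ, CpG oligodeoxynucleotide or both (labelled IFN, CpG and IFN_CpG) for 3, 9 or 15 h. The series calls the 2 libraries of a group biological replicates, and does not say whether they came from separate mice. The growth protocol mentions IL-4 and IL-10 as well, without saying if the cells counted here received them. Untreated cells of 3, 9 or 15 h are not among the samples, so that in each comparison with unstimulated cells the stimulus and the time in culture cannot be told apart.

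Cd300 receptors are a family of immunoglobulin-like proteins of myeloid cells that bind lipids such as phosphatidylserine on dying cells. The family is paired: Cd300a and Cd300lf carry inhibitory motifs in their tails, while members such as Cd300lb and Cd300e signal through activating adaptor proteins. An active enhancer is transcribed from both strands into short capped RNAs, so that a count of capped 5' ends reads its activity. IFN-γ is a cytokine that activates macrophages, and CpG DNA is a ligand of the endosomal receptor TLR9. The CpG agent is shown because its CG pairs, in capitals, are what TLR9 ligands of this kind are named for. It has 20 bases with 2 CG pairs, and the protocol that gives it describes a stimulation of another length than the times on these samples.
ODN-1826: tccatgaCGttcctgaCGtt

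In the RefSeq order of genes on GRCm38, an older build, 11 Cd300 genes follow each other as Cd300a, Cd300lb, Cd300c, Cd300ld, Cd300c2, Cd300ld4, Cd300ld2, Cd300ld5, Cd300ld3, Cd300e and Cd300lf, with 1 gene of another family, Rab37, before the last. Positions were not carried over between builds, so that no enhancer was assigned to a gene, and no statement on a receptor gene's own expression is made: the files count enhancers and hold no gene values. The same holds for markers of macrophages, which could not be read. Of the 28 enhancers, 18 lie between 114.7 and 115.0 Mb.

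The first 570.573 kb of the stretch held no enhancer, and the 28 then spanned 519.72 kb. Gaps of at most 12 kb joined them into 5 groups of several enhancers and left 6 single ones. The largest group, E3 to E9, held 7 enhancers and contained E4 (chr11:114775634-114775879), E5 (chr11:114781897-114782287) and E7 (chr11:114788923-114789329). Next came a group of 3, E10 to E12, with E10 at chr11:114820544-114820762 and E12 at chr11:114821940-114822232. The single enhancer E14 stood at chr11:114894820-114895102. A group of 4, E15 to E18, and a group of 3, E19 to E21, followed, with E21 at chr11:115010333-115010662. The last group of 5, E24 to E28, began with E24 (chr11:115079684-115080086) and E25 (chr11:115080138-115080480), which are 52 bases apart. Widths ran from 127 to 704 bases with a median of 287, beside 288 over all enhancers. The nearest enhancers outside lay 292 kb before the stretch (chr11:113707846-113708009, 12 tags) and 304 kb after it (chr11:115403633-115403837, 33 tags).

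**Figure D1:**
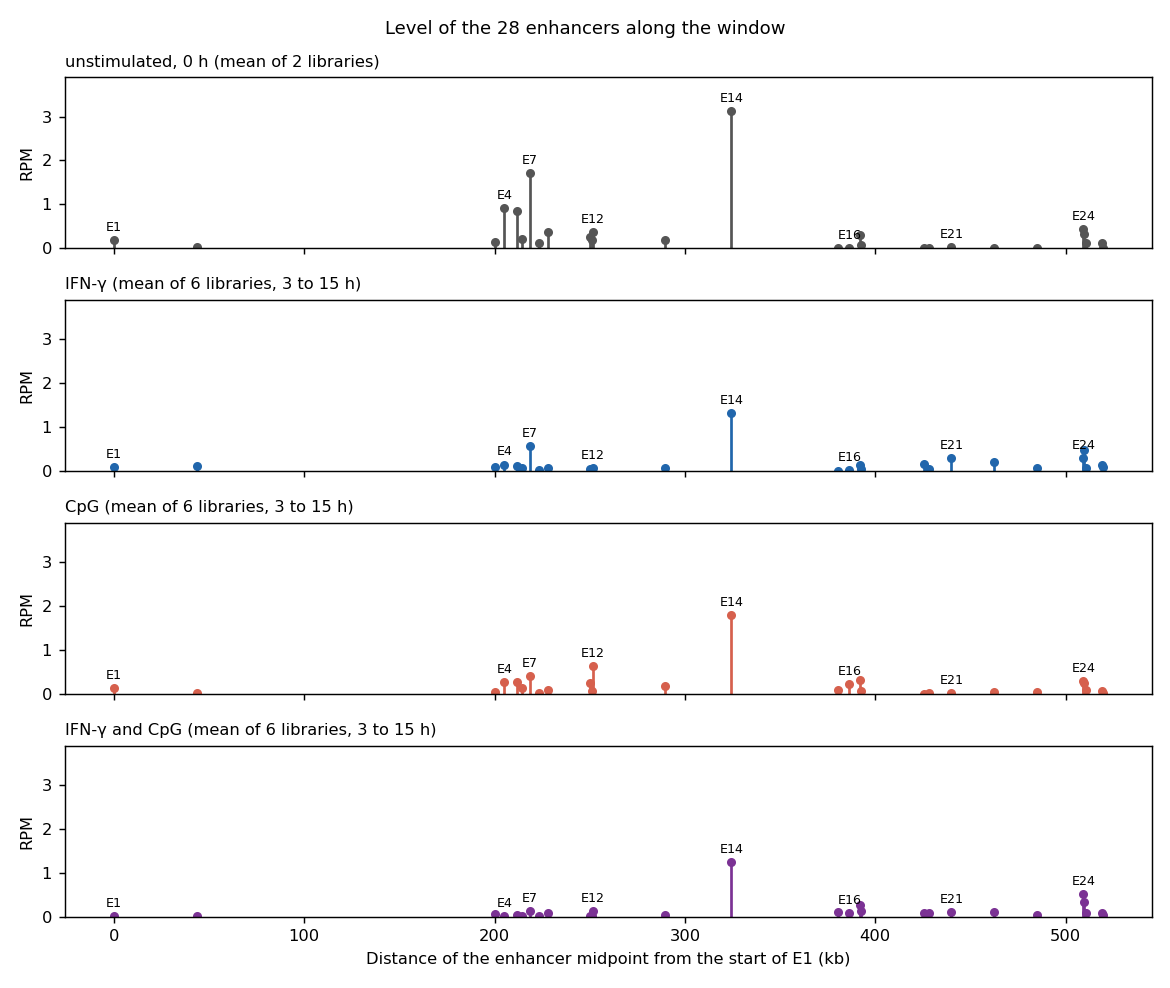
Mean level (RPM, the tag count scaled to the total tags of its library, y axis) of the 28 enhancers against the distance of their midpoints from the start of E1 (kb, x axis), in unstimulated cells and over the 6 libraries of each stimulus; 8 enhancers are labelled. E14 is the highest point in all 4 panels, E7 falls from 1.72 RPM to 0.139 with both stimuli, and E12 and E21 stand out in different panels.

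Total depth was 12776280 to 13855472 tags per library. Enhancers took 12879 to 29794 of these, or 0.0991% to 0.220%. The stretch held 1454 tags over the 20 libraries, so that 1 tag is about 0.07 to 0.08 RPM and most values below rest on few tags. E14 alone gave 435 of them (29.9%), and E14, E7, E24, E25 and E12 together 841 (57.8%). The median enhancer of the stretch had 27 tags, beside 21 over all 11222. Only 10 of the 28 had enough tags to be tested (E4, E5, E7, E10, E12, E14, E17, E21, E24 and E25), among 2792 tested in all, and these 10 held 75.1% of the tags of the stretch. The other 18 are described by their tags. E5 passed the filter on low counts with 3 libraries, 2 of them unstimulated, and would not have passed without these, and E4 passed with 4, of which 2 were unstimulated; a member let in by the group where it is high is more likely to be called lower.

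The sum over the 28 enhancers was highest in unstimulated cells. It was 9.19 and 10.9 RPM in the 2 unstimulated libraries, and 2.60 to 7.10 RPM in the 18 stimulated ones, with no overlap. IFN-γ gave 3.66 ± 0.0618 RPM at 3 h (mean ± SD, n = 2), 5.69 ± 0.590 at 9 h and 5.42 ± 0.998 at 15 h. CpG gave 6.30 ± 0.382, 6.28 ± 0.774 and 5.04 ± 0.0650 RPM at the same times. Both stimuli gave the lowest sums, 3.00 ± 0.566 RPM at 3 h and 2.92 ± 0.387 at 9 h, and then 6.02 ± 1.52 at 15 h, where the libraries stood at 4.94 and 7.10. The ratios to unstimulated cells were 0.364, 0.565 and 0.539 with IFN-γ, 0.626, 0.625 and 0.501 with CpG, and 0.298, 0.290 and 0.598 with both. No p is given for the sum, because its members were chosen with these values known. In these bulk libraries, fewer cells with active enhancers and less RNA per cell cannot be told apart.

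Enhancer tags as a whole moved less and not always downwards. Their RPM stood at 0.743 of the unstimulated level with IFN-γ at 3 h, the lowest ratio, and at 1.23 and 1.2 with both stimuli at 3 and 15 h. As a share of all enhancer tags, the stretch held 0.650% in unstimulated cells, 0.158%, 0.216% and 0.321% with both stimuli at 3, 9 and 15 h, and 0.323% to 0.484% in the other stimulated groups. On the enhancer tags with TMM factors the sum with IFN-γ at 3 h was 0.4996 of the unstimulated one. Over the 18 enhancers between 114.7 and 115.0 Mb, that ratio was 0.238 on the RPM scale.

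**Figure D2:**
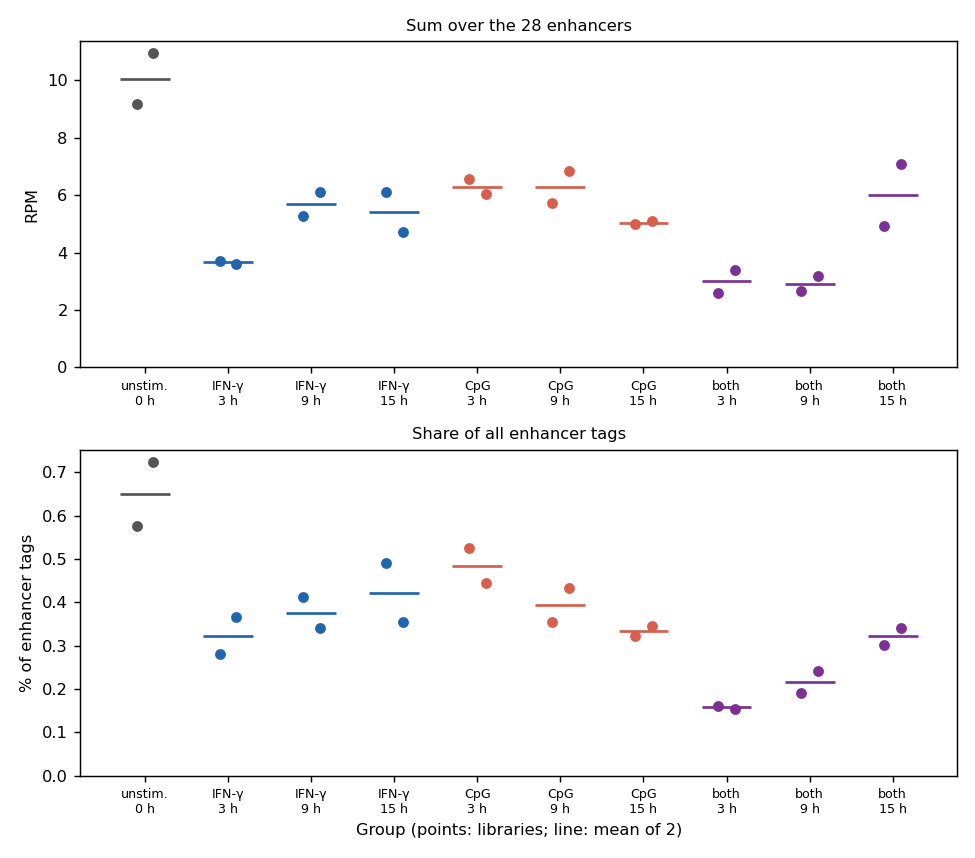
Sum of the 28 enhancers in each library, in RPM (top) and as a percentage of all enhancer tags (bottom), by group; points are libraries and lines the means of 2. The unstimulated libraries (9.19 and 10.9 RPM) lie above all 18 stimulated ones, and both stimuli at 3 and 9 h are lowest on the 2 scales.

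Calls were read from an edgeR quasi-likelihood fit over all 2792 tested enhancers, with Benjamini-Hochberg adjustment and a threshold of 0.05. Against unstimulated cells the 10 tested members gave 24 calls over the 9 groups, and each of these was lower. With IFN-γ at 3 h 3 of 10 were called lower, where 2.9% of all tested enhancers were (10.5% in either direction). At 9 h it was 3 of 10 against 6.59% lower and 19.4% in either direction, and at 15 h 2 of 10 against 4.94% and 15%. CpG gave no call at 3 h, where 1.54% of all were called either way; 1 member was under an unadjusted p of 0.05, DESeq2 called 0 and limma on log2(RPM + 0.5) called 1. At 9 h 1 of 10 was called lower with CpG (2.51% of all lower, 6.98% either way), and at 15 h 2 of 10 were (3.04% and 7.59%). With both stimuli 5 of 10 were called lower at 3 h (8.95% of all lower, 27.4% either way), 4 of 10 at 9 h (8.27% and 22.3%) and 4 of 10 at 15 h (9.67% and 25.3%). These comparisons share the unstimulated libraries. E5, which would not have passed the filter without these libraries, is among the members counted with IFN-γ at 9 and 15 h. It is also counted with both stimuli at 3, 9 and 15 h.

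The median log2 change of the 10 members was -1.77, -0.91 and -1.44 with IFN-γ at 3, 9 and 15 h, beside 0.01, 0.10 and 0.00 over all tested enhancers. With CpG it was -0.08, -0.90 and -1.40, beside 0.00, 0.05 and 0.06. With both it was -2.40, -1.99 and -0.72, beside 0.23, 0.32 and 0.31. In every one of the 9 groups some of the 10 members stood on the other side, from 1 with both stimuli at 3 h to 5 with CpG at 3 h. With RLE factors and with limma, 1 member was called higher with IFN-γ at 15 h.

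E14 was the most transcribed enhancer of the stretch in each of the 10 groups. It held 37 and 48 tags in unstimulated cells, 13 and 7, 19 and 14, and 31 and 23 with IFN-γ at 3, 9 and 15 h, and 32 and 23, 18 and 26, and 20 and 23 with CpG. With both stimuli it held 20 and 15, 11 and 8, and 25 and 22. In RPM it stood at 3.12 ± 0.634 in unstimulated cells, and both of these libraries (2.68 and 3.57) lay above the highest of the 18 stimulated ones (2.39). As a share of enhancer tags this did not hold for unstimulated replicate 1, with 37 of 22026 tags. IFN-γ 15 h replicate 1 (31 of 16478) and CpG 3 h replicate 1 (32 of 16783) lay above it, and below unstimulated replicate 2 (48 of 20301). The drop with IFN-γ was deepest at 3 h, 0.761 ± 0.314 RPM, followed by 1.19 ± 0.250 at 9 h and 2.03 ± 0.441 at 15 h. The log2 changes come from the fit, which scales to enhancer tags with TMM factors. They thus differ from ratios of the RPM means, which scale to all tags of a library. For E14 the log2 change was -1.58 ± 0.39 (SE) at 3 h and -1.21 ± 0.35 at 9 h (edgeR adjusted p = 0.00181 and 0.00633). At 15 h it was -0.29 ± 0.32, which was not called (adjusted p = 0.581). The rise from 3 to 15 h of IFN-γ itself, 1.29 ± 0.41, was not called either (adjusted p = 0.0937).

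CpG left E14 at 2.07 ± 0.448, 1.64 ± 0.417 and 1.67 ± 0.186 RPM, and none of these was called against unstimulated cells (log2 changes -0.30, -0.89 and -0.81; edgeR adjusted p = 0.721, 0.0790 and 0.117). Both stimuli gave 1.28 ± 0.237, 0.721 ± 0.158 and 1.78 ± 0.0909 RPM, with log2 changes of -1.30 ± 0.34, -1.80 ± 0.39 and -0.89 ± 0.33 (edgeR adjusted p = 0.00190, 1.34e-04 and 0.0298). The call at 9 h with both stimuli was kept with each of the 4 libraries left out in turn (adjusted p up to 0.0281). Without unstimulated replicate 2 the calls of IFN-γ at 3 and 9 h and of both stimuli at 3 h were lost (0.131, 0.218 and 0.144), those of the last 2 also without IFN-γ 9 h replicate 2 (0.292) and without IFN_CpG 3 h replicate 2 (0.228). The call at 15 h with both stimuli was lost with any of the 4 left out (adjusted p 0.0501 to 0.376).

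The group E3 to E9 had its highest level in unstimulated cells. Its summed level was 4.33 ± 0.607 RPM in unstimulated cells and 0.954, 1.59 and 0.715 RPM with IFN-γ, 1.73, 1.19 and 0.813 with CpG and 0.405, 0.266 and 0.537 with both at 3, 9 and 15 h. Over the 6 libraries with both stimuli it held 32 tags, against 118 in the 2 unstimulated ones, which is 10.8-fold lower (95% counting interval 7.28 to 16.6). With IFN-γ alone it was 3.96-fold lower (2.98 to 5.28) and with CpG alone 3.46-fold lower (2.63 to 4.57). Such intervals cover counting error only.

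E7 had the most tags of this group. Its unstimulated libraries held 25 and 22 tags, and the stimulated ones 15 at most. IFN-γ gave 6 and 5, 15 and 13, and 5 and 2 tags at 3, 9 and 15 h, CpG 6 and 7, 6 and 5, and 6 and 2, and both 0 and 3, 3 and 1, and 0 and 4. In RPM this was 1.72 ± 0.121 in unstimulated cells, and the lowest group mean was 0.111 ± 0.157 with both stimuli at 3 h. The stimulated libraries lay below both unstimulated ones throughout, and among the IFN-γ groups the 9 h libraries (1.08 and 0.944 RPM) lay above those of 3 and 15 h. Its log2 change was -1.57 ± 0.52 and -2.35 ± 0.57 with IFN-γ at 3 and 15 h (edgeR adjusted p = 0.0331 and 0.00149) and -0.60 ± 0.43 at 9 h, not called (0.336). With CpG it was -1.51 ± 0.50 at 3 h, not called (edgeR adjusted p = 0.0884), then -2.01 ± 0.52 and -2.35 ± 0.55 at 9 and 15 h (0.00540 and 0.00155).

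With both stimuli E7 changed by -3.88 ± 0.67, -3.13 ± 0.65 and -3.51 ± 0.63 on the log2 scale (edgeR adjusted p = 5.46e-07, 5.35e-05 and 1.56e-06). At 3 h, 3 tags stood against 47, or 15.7-fold less (95% counting interval 5.06 to 79.0). These 3 calls were kept with each library left out (adjusted p up to 0.0167). The calls of IFN-γ at 3 h and CpG at 9 h were lost with any 1 of their 4 libraries left out (0.125 to 0.243 and 0.0722 to 0.118), that of IFN-γ at 15 h without IFN-γ replicate 2 (0.11), and that of CpG at 15 h without CpG replicate 2 (0.107).

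E4 and E5, in the same group as E7, each had no tag in 2 of the 3 groups with both stimuli. E4 held 11 and 14 tags in unstimulated cells, 1 and 2, 1 and 3, and 2 and 3 with IFN-γ, 6 and 6, 3 and 5, and 0 and 2 with CpG, and none, none, and 2 and 0 with both at 3, 9 and 15 h. From 0.919 ± 0.174 RPM, it was at least 8.37-fold and at least 8.06-fold lower with both stimuli at 3 and 9 h (edgeR adjusted p = 5.35e-05 and 3.48e-04). Such a bound takes 3 tags as the most that a count of 0 over the group allows, and the unstimulated count as exact. At 15 h, 2 tags against 25 gave a ratio of 12.1-fold, with a 95% counting interval of 3.02 to 105 (edgeR adjusted p = 0.00181). The bounds and this ratio do not order the 3 times. E5 held 10 and 13 tags in unstimulated cells, 1 and 3, 0 and 4, and 2 and 0 with IFN-γ, 7 and 3, 3 and 3, and 2 and 3 with CpG, and 1 and 2, then none and none, with both. From 0.845 ± 0.173 RPM, it was at least 7.41-fold and at least 7.42-fold lower with both at 9 and 15 h (edgeR adjusted p = 7.22e-04 and 1.39e-04), and 7.70-fold (2.33 to 40.1) at 3 h (0.00780). In both enhancers the unstimulated libraries lay above all stimulated ones.

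Calls against unstimulated cells were also made with the single stimuli. E4 was called lower with IFN-γ at 3 and 9 h (log2 changes -2.48 ± 0.88 and -2.45 ± 0.81; edgeR adjusted p = 0.0474 and 0.0201) and with CpG at 15 h (-3.32 ± 0.93; 0.0115). E5 was called lower with IFN-γ at 9 and 15 h (-2.34 ± 0.84 and -3.03 ± 0.97; edgeR adjusted p = 0.0324 and 0.0191). E5 would not have passed the filter on low counts without the unstimulated libraries, where it is high. All its calls against unstimulated cells are thus a description, and their being kept adds no support. The 2 IFN-γ calls of E4 were lost with any 1 of their 4 libraries left out (0.109 to 0.352 at 3 h, 0.0706 to 0.187 at 9 h). Each of the other 3 was lost in 3 of 4 such fits, with adjusted p up to 0.240 (E4, CpG 15 h), 0.296 (E5, IFN-γ 9 h) and 0.286 (E5, IFN-γ 15 h). With both stimuli, the calls of E4 at 3 and 9 h and of E5 at 9 and 15 h were kept with each library left out (adjusted p up to 0.0309), that of E4 at 15 h was lost without IFN_CpG replicate 2 (0.0924), and that of E5 at 3 h in 3 of 4 fits (up to 0.107).

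**Figure D3:**
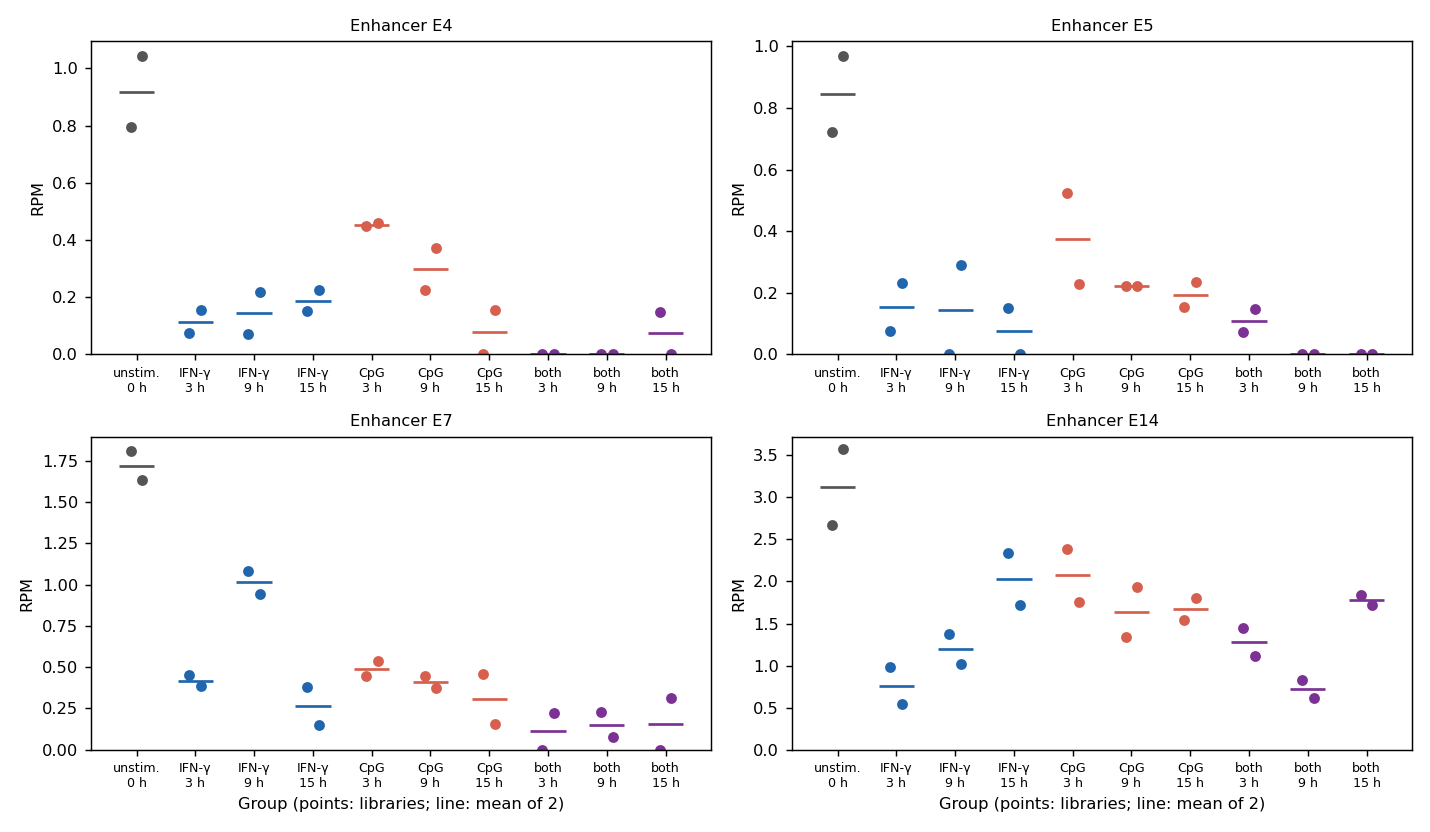
Level (RPM) of E4, E5, E7 and E14 in each library, by group; points are libraries and lines the means of 2. In each panel both unstimulated libraries lie above all stimulated ones, and with both stimuli E4 and E5 reach 0 in groups where E14 stands at 0.721 to 1.78 RPM.

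The other enhancers of this group, E3, E6, E8 and E9, were not tested. E9 held 5 and 5 tags in unstimulated cells and at most 3 in a stimulated library. E6 held 6 tags over the 2 unstimulated libraries and 2 over the 6 with both stimuli, a ratio of 8.82-fold (95% counting interval 1.58 to 89.3). E3 and E8 held 19 and 9 tags over all 20 libraries, too few to compare.

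Both stimuli were then set against each single one over the 3 times, 6 libraries against 6, which keeps the time in culture equal. Against IFN-γ, 4 of 10 members were lower with both, where 9.03% of all tested enhancers were lower and 21.4% were called either way. Against CpG, 5 of 10 were lower, where 12.1% were lower and 30.1% were called either way. Between the single stimuli, 1 of 10 was higher with CpG (20.6% of all) and 2 of 10 were lower (22%; 42.6% either way), which is near or below the background. The 3 comparisons share libraries in pairs. E21, among the 4 lower than with IFN-γ, passed the filter on low counts through IFN-γ libraries alone. E12, among the 5 lower than with CpG, passed through CpG libraries alone. Between the single stimuli, E12 is the 1 higher with CpG and E21 is among the 2 lower. Members let in by the group where they are high are more likely to be called, so that these counts are a description.

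The sum of E3 to E9 was lower with both stimuli than with each alone, at 32 tags against 88 with IFN-γ and 99 with CpG. Not every enhancer of the group was lower. E9 held 7 tags with both and 5 with IFN-γ, E3 held 5 with both and 3 with CpG, and E8 held 2 in each. E7 held 46 tags with IFN-γ, 32 with CpG and 11 with both over 6 libraries each, or 0.565 ± 0.364, 0.403 ± 0.131 and 0.139 ± 0.132 RPM. The difference of both from IFN-γ was -2.0 ± 0.50 on the log2 scale and from CpG -1.55 ± 0.50 (edgeR adjusted p = 0.00101 and 0.0105). E4 held 12 tags with IFN-γ, 22 with CpG and 2 with both, so that both were 5.98-fold (95% counting interval 1.33 to 55.0) below IFN-γ and 11.1-fold (2.74 to 97.7) below CpG (edgeR adjusted p = 0.0145 and 0.00393). E5 held 10, 21 and 3 tags, and both were 3.32-fold (0.855 to 18.8) and 7.09-fold (2.12 to 37.1) lower (edgeR adjusted p = 0.0478 and 0.00118).

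These p-values come from means of log2 differences at each time, in which a group with no tag has no finite log2 level. A fit of stimulus plus time on the 18 stimulated libraries, chosen after the data were seen, gave edgeR adjusted p of 0.0471, 0.139 and 7.32e-04 for E4, E5 and E7 against IFN-γ and 0.00241, 0.00570 and 0.0195 against CpG. The call of E5 against IFN-γ was thus lost; it was lost in 8 of 9 alternatives and with 10 of the 12 libraries left out (adjusted p up to 1.00). That of E4 was lost in 4 of 9 alternatives (adjusted p of edgeR without a filter, DESeq2 or limma up to 0.186) and with 5 of 12 libraries left out. E7 lost its call against IFN-γ without IFN-γ 15 h replicate 1 (0.0711), and against CpG without CpG 15 h replicate 1 (0.151), IFN_CpG 3 h replicate 1 (0.0602) or IFN_CpG 15 h replicate 1 (0.0713). Against CpG, E5 was called with each of the 12 left out, and E4 lost its call without CpG 15 h replicate 2, which leaves a group without a tag. E14 was lower with both than with CpG by 0.66 ± 0.22 on the log2 scale (edgeR adjusted p = 0.0150), a call lost in 6 of 11 alternatives and with 6 of 12 libraries left out.

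The group E10 to E12 differed between the single stimuli: most of its tags under stimulation came with CpG. E12 held 5 and 5 tags in unstimulated cells, 8 and 7, 12 and 15, and 3 and 5 with CpG at 3, 9 and 15 h, and 1 and 0, 0 and 2, and 1 and 1 with IFN-γ. With both stimuli it held 0 and 1, 0 and 3, and 2 and 5. The highest group mean was 1.00 ± 0.155 RPM with CpG at 9 h, beside 0.367 ± 0.00744 in unstimulated cells; that rise was not called (log2 change 1.47 ± 0.62; edgeR adjusted p = 0.128). All 6 CpG libraries (0.231 to 1.11 RPM) lay above all 6 IFN-γ libraries (0 to 0.145).

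Over the 3 times E12 was higher with CpG than with IFN-γ by 2.91 ± 0.60 on the log2 scale (edgeR adjusted p = 1.78e-05) and lower with both than with CpG by 2.37 ± 0.55 (2.15e-04). These 2 calls were kept in all 11 alternatives and with each of the 12 libraries left out. Against unstimulated cells E12 was called lower with both stimuli at 3 h, by 10.0-fold, since 1 tag stood against 10 (edgeR adjusted p = 0.0388; 95% counting interval 1.43 to 436), a call lost with any 1 of the 4 libraries left out (0.118 to 0.241). E12 passed the filter on low counts through 5 libraries, all of them CpG libraries. It was thus tested only because it is high with CpG, so that its calls of CpG over IFN-γ and over both are a description, and their being kept adds no support.

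E10 held 3 and 4 tags in unstimulated cells, 4 and 6 then 6 and 3 with CpG at 3 and 9 h, and none at 15 h. It held 4 tags over the 6 IFN-γ libraries and 1 over the 6 with both stimuli, against 19 with CpG. With both, that is 19.2-fold less than with CpG (95% counting interval 3.06 to 799). E10 was not called in any of the 15 comparisons. In that of both against CpG, groups without a tag left no usable estimate (SE 4807 on the log2 scale). The fit of stimulus plus time called E10 lower with both than with CpG (log2 difference -3.42 ± 0.99). E10 passed the filter through 2 CpG libraries alone, so that this call is a description. No p is given for the difference of E10 from CpG. E11, 231 bases before E12, was not tested and held 5 tags in unstimulated cells, 5 with CpG, 2 with IFN-γ and 2 with both. As a group E10 to E12 held 74 tags with CpG and 11 with IFN-γ, 6.84-fold more (95% counting interval 3.61 to 14.3).

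In the group E19 to E21 and the single E22 most tags came with IFN-γ. E21 held 1 and 0 tags in unstimulated cells, 1 and 6, 4 and 2, and 8 and 3 with IFN-γ, and 1 and 0, then none and none, with CpG. With both stimuli it held 4 and 3 at 3 h, none at 9 h, and 1 and 1 at 15 h. Each of the 6 IFN-γ libraries (0.0756 to 0.605 RPM) lay above each CpG library (0 to 0.0747 RPM), although the lowest of the former and the highest of the latter hold 1 tag each. Over the 3 times 24 tags stood against 1, so that CpG was 23.6-fold lower (95% counting interval 3.85 to 971; edgeR adjusted p = 1.49e-04), a call kept in all 10 alternatives and with each of 12 libraries left out.

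Both stimuli were lower than IFN-γ at E21, 9 tags against 24 (0.11 ± 0.119 and 0.3 ± 0.200 RPM; edgeR adjusted p = 0.0185). That call was lost with DESeq2 (0.218) and with 5 of 12 libraries left out (adjusted p 0.0624 to 0.241), the highest without IFN-γ 3 h replicate 2. Against unstimulated cells the rise with IFN-γ at 15 h, 11 tags against 1 (11.3-fold, 95% counting interval 1.64 to 486), was not called (edgeR adjusted p = 0.0527). E21 passed the filter through 2 libraries, IFN-γ 3 h replicate 2 and IFN-γ 15 h replicate 1. It was thus tested only because it is high with IFN-γ, so that its calls of CpG and of both below IFN-γ are a description, and their being kept adds no support.

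E19, E20 and E22 were not tested. E19 held no tag in the 2 unstimulated and the 6 CpG libraries, 13 over the 6 IFN-γ libraries and 6 with both, so that CpG was at least 4.26-fold below IFN-γ. E20 held 0, 4, 1 and 6 tags in unstimulated, IFN-γ, CpG and combined libraries, 5 of the last 6 in 1 library. E22 (chr11:115032851-115033099) held no tag in unstimulated cells and 2 and 5, 2 and 2, and 3 and 3 with IFN-γ at 3, 9 and 15 h. It thus had a tag in 6 of 6 IFN-γ libraries, in 1 of 6 with CpG (4 tags) and in 5 of 6 with both (9 tags). The group E19 to E21 held 41 tags with IFN-γ, 2 with CpG and 1 in unstimulated cells; CpG was 20.2-fold below IFN-γ (95% counting interval 5.24 to 172).

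The group E15 to E18, between E14 and the group of E21, had most tags with CpG and with both. It held 10 tags over the 2 unstimulated libraries, 9 of them in replicate 1, and 18 with IFN-γ, 58 with CpG and 48 with both over 6 libraries each. CpG was 3.27-fold above IFN-γ (95% counting interval 1.90 to 5.91). E15 and E16 held no tag in unstimulated cells, 1 and 2 with IFN-γ, 8 and 18 with CpG, where each had a tag in 6 of 6 libraries, and 9 and 6 with both. For E16 CpG was 9.15-fold above IFN-γ (2.19 to 81.3). E17 was tested and not called in any of the 15 comparisons; it held 7 and 1 tags in unstimulated cells and stood at 0.328 ± 0.125 RPM with CpG, 0.276 ± 0.118 with both and 0.136 ± 0.11 with IFN-γ (n = 6 each; CpG against IFN-γ, log2 difference 1.12 ± 0.58, edgeR adjusted p = 0.108). E18, 84 bases after E17, held 2, 4, 6 and 11 tags in the same order of unstimulated cells, IFN-γ, CpG and both.

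**Figure D4:**
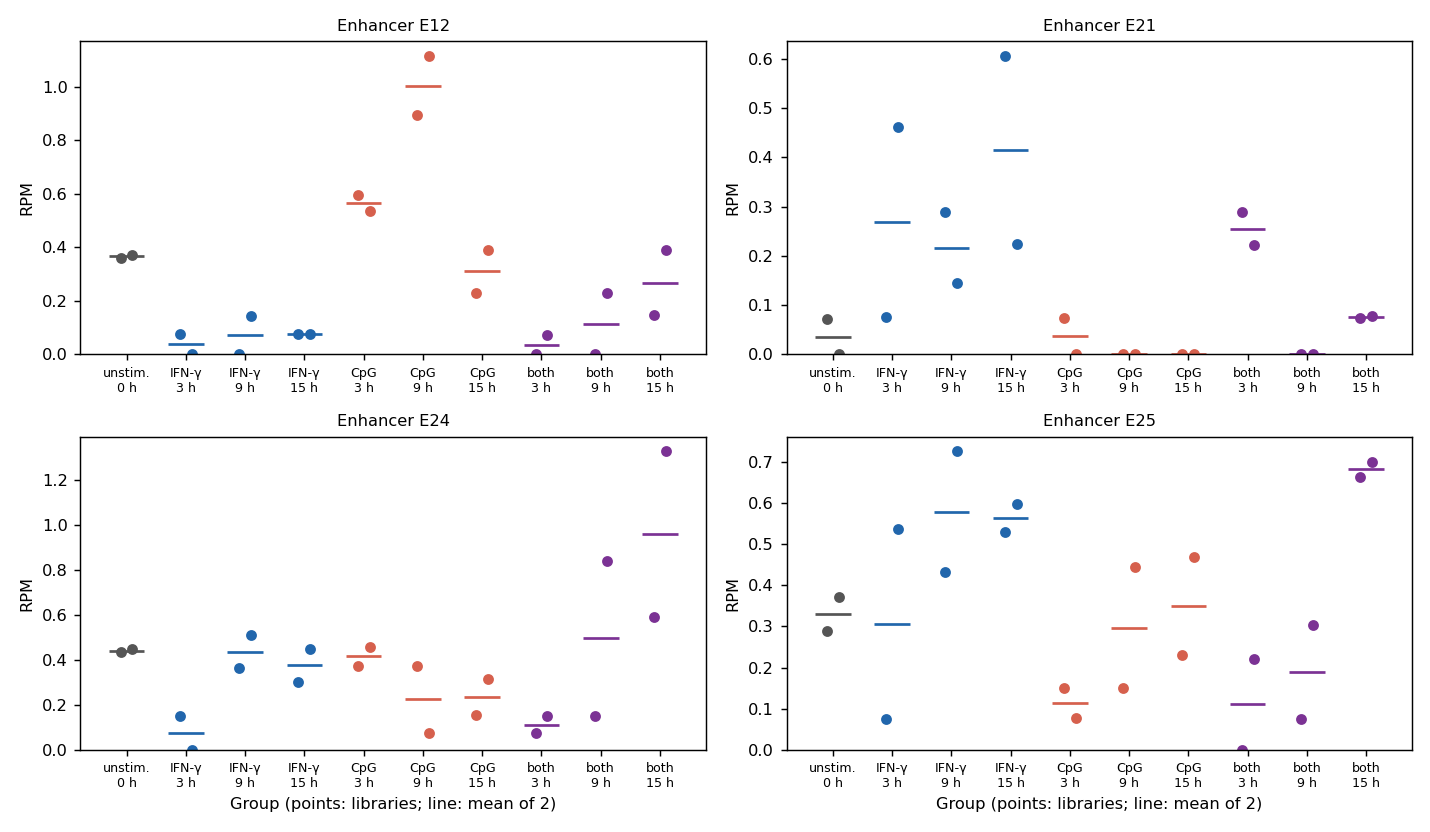
Level (RPM) of E12, E21, E24 and E25 in each library, by group; points are libraries and lines the means of 2. E12 is highest with CpG at 9 h (1.00 RPM), E21 has no tag with CpG at 9 and 15 h, and E24 and E25 are highest with both stimuli at 15 h.

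The last group, E24 to E28, had levels near the unstimulated one over each stimulus as a whole, and its highest and lowest group means both with the combination. It held 0.992 ± 0.176 RPM in unstimulated cells, and over 6 libraries each 1.10 ± 0.397 with IFN-γ, 0.734 ± 0.153 with CpG and 1.05 ± 0.801 with both. With both stimuli it went from 0.332 ± 0.367 RPM at 3 h to 0.949 ± 0.486 at 9 h and 1.87 ± 0.663 at 15 h. E24 held 6 and 6 tags in unstimulated cells, 2 and 0, 5 and 7, and 4 and 6 with IFN-γ, 5 and 6, 5 and 1, and 2 and 4 with CpG, and 1 and 2, 2 and 11, and 8 and 17 with both. E25 held 4 and 5 tags in unstimulated cells, 1 and 7, 6 and 10, and 7 and 8 with IFN-γ, 2 and 1, 2 and 6, and 3 and 6 with CpG, and 0 and 3, 1 and 4, and 9 and 9 with both. Neither was called against unstimulated cells in any of the 9 groups.

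From 3 to 15 h with both stimuli, 2 of 10 members were called higher at 15 h, where 4.48% of all tested enhancers were higher and 9.28% were called either way. These were E24, with 0.11 ± 0.0535 RPM at 3 h and 0.958 ± 0.520 at 15 h (log2 change 2.92 ± 0.77; edgeR adjusted p = 0.00563), and E25, with 0.111 ± 0.157 and 0.683 ± 0.0268 RPM (2.47 ± 0.83; 0.0363). The libraries of the 2 times did not overlap at either enhancer. DESeq2 gave adjusted p of 0.0641 and 0.124; E24 lost its call with 3 of the 4 libraries left out (0.0942 to 0.211, the highest without IFN_CpG 15 h replicate 2) and E25 with any of the 4 (0.0693 to 0.338). No member was called from 3 to 15 h with IFN-γ (1.04% of all were) or with CpG (0.645%). In each of these 2 comparisons 2 members were under an unadjusted p of 0.05 in edgeR, DESeq2 called 0 and limma on log2(RPM + 0.5) called 1. Whether the time course differed between stimuli was not tested.

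E25 also differed between the single stimuli, with 39 tags under IFN-γ and 20 under CpG (0.484 ± 0.222 and 0.253 ± 0.166 RPM, n = 6 each; log2 difference -1.16 ± 0.46 for CpG, edgeR adjusted p = 0.0309). This call was lost in 6 of 10 alternatives and with 7 of 12 libraries left out (adjusted p up to 0.691, without IFN-γ 3 h replicate 2). E26, E27 and E28 were not tested and held 23, 28 and 12 tags over all libraries. E28 (chr11:115090105-115090293), the last of the stretch, held no tag in unstimulated cells and 8 of its 12 tags with IFN-γ, in 3 libraries: 3 and 1 at 3 h and 0 and 4 at 9 h.

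The single enhancers E1, E2, E13 and E23 held 23, 12, 28 and 12 tags. E1 (chr11:114570573-114570801), the first of the stretch, held 2 and 3 tags in unstimulated cells, 7 over the 6 IFN-γ libraries, 10 over those of CpG and 1 over those of both; both were 14.7-fold below unstimulated cells (95% counting interval 1.64 to 695). E2 held 1 tag in unstimulated cells, 9 with IFN-γ, 1 with CpG and 1 with both. E13 had a tag in 6 of 6 CpG libraries (14 tags), in 3 of 6 with IFN-γ (5) and in 4 of 6 with both (4), beside 5 tags in unstimulated cells. E23 held no tag in unstimulated cells and 5, 4 and 3 with the 3 stimuli. Of the 28, 7 had no tag in unstimulated cells; at the depth of these libraries, a count of 0 over 2 of them allows up to 0.11 RPM. The 18 untested enhancers together went from 1.73 ± 0.606 RPM in unstimulated cells to between 0.770 ± 0.374 with both stimuli at 3 h and 1.72 ± 0.550 with both at 15 h. Most of the fall of the sum thus lay in the tested ones. These were let in by their tags and hold 75.1% of the tags of the stretch, so that this describes the split and is no trait of theirs.

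**Figure D5:**
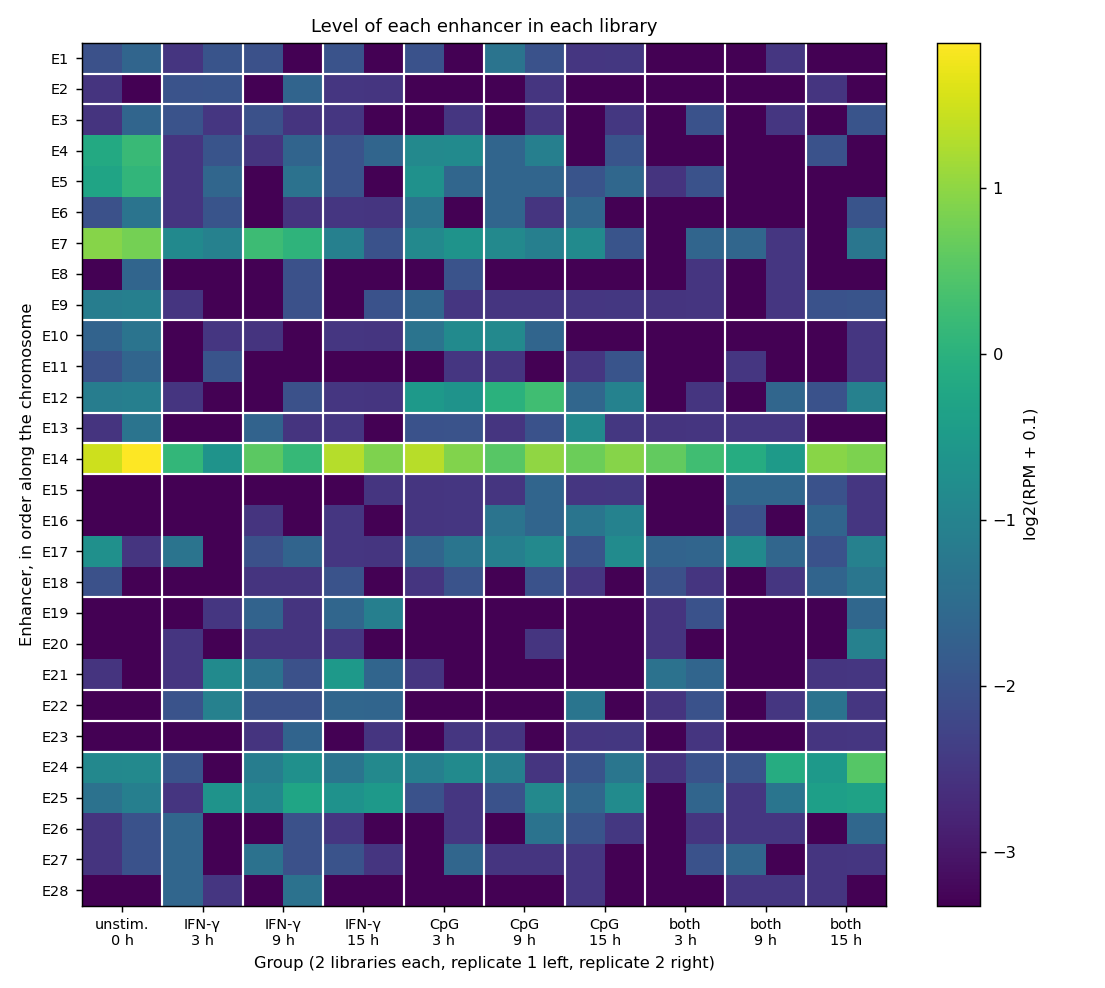
Level of each of the 28 enhancers (rows, in order along the chromosome, white lines between groups) in each of the 20 libraries (columns), as log2(RPM + 0.1). E4, E5 and E7 are brightest in unstimulated cells, E12 with CpG, E19, E21 and E22 with IFN-γ, and the darkest colour is a count of 0.

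Tested members were compared in pairs over the 10 group means, on the scale of log2(RPM + 0.5). Within a group of enhancers, Pearson's r was 0.92 between E4 and E5, 0.81 between E4 and E7, and 0.82 between E5 and E7. It was 0.82 between E10 and E12, and 0.52 between E24 and E25. Some pairs from different groups were as much alike, with r of 0.82 between E4 and E10, 0.77 between E4 and E14, and 0.71 between E12 and E17. For tested members that follow each other across groups, r was 0.47 between E7 and E10, 0.50 between E12 and E14, and 0.06 between E14 and E17. It was -0.94 between E17 and E21 and -0.29 between E21 and E24. Between E12 and E21, which are further apart, it was -0.70. Over the 45 pairs r ran from -0.94 to 0.92, and the points share their libraries and their scaling. Outside the stretch, the sum had the nearest likeness to enhancers at chr5:114010047-114010610 (r = 0.93), chr8:122866455-122866761 (0.92) and chr6:122612280-122612645 (0.91). The enhancers most like E14 were chr8:18669097-18669507, chr10:83179034-83179450 and chr12:85427108-85427524 (r = 0.86, 0.86 and 0.85).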

How the data were processed

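The authors deposited raw tag counts of 11222 enhancers in 20 nAnT-iCAGE libraries, and a second table. Its deposited values proved to be RPM, with each library's full tag total as the denominator. Per the submitters' processing notes, FastQC 0.11.5, Trimmomatic 0.38, BWA 0.7.10, HISAT2 2.1.0 and mm39 were used; the enhancer caller is not given in the sources used here, nor whether starts count from 0 or 1. Groups came from the titles and characteristics.

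Counts of all enhancers were fitted in R 4.3.3 by the robust quasi-likelihood F-test of edgeR 4.0.16, with TMM factors, 1 coefficient per group (10 residual degrees of freedom) and filterByExpr (minimum count 5, minimum total 15), which kept 2792. A call is a Benjamini-Hochberg adjusted p under 0.05 over these. Log2 changes carry the SE implied by F; the common biological coefficient of variation was 17.8%. Sums, levels and ratios are in RPM. A fold against 0 tags is a bound that sets the group at 3 tags and takes the count of the other group as exact. It thus leaves out the counting error of that other group. With few tags, ratios have exact 95% intervals, which cover counting error only. Neither covers the spread between libraries. The script was tested on simulated data.

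The 28 members, their groups and the alternatives were chosen with earlier results of these data known. Named with their values in each library are the 5 members with most tags and those called in any of 15 comparisons. The enhancers nearest the edges are named for their position, with summed tags or part of their library values. Others named were chosen after their values were seen. Alternatives were no filter, a stricter filter (10 and 30), RLE factors, a replicate block, whole-library totals, the compared groups alone, DESeq2 1.42.0, limma 3.58.1 on log2(RPM + 0.5, 0.1 or 2), leaving out each library, and, added later, stimulus plus time in stimulated libraries. Each fit with a library left out applied the filter anew, and an enhancer then needed fewer libraries to pass. The tested set and the adjustment thus differed from those of the reported fit. The annotation at hand is of GRCm38, so that coordinates were not matched to genes and no enhancer sequence of mm39 is shown.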

Additional observations from a re-analysis of the deposited data

Results flagged for a closer look

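Levels at 15 h were set against those at 3 h within each stimulus. E24 rose by 2.92 and E25 by 2.47 on the log2 scale from 3 to 15 h with both stimuli (edgeR adjusted p = 0.00563 and 0.0363). In IFN-γ the same differences were 2.08 and 0.74 and in CpG -1.01 and 1.36, none of them called by edgeR, and the difference between stimuli was not tested. At each enhancer the 3 h libraries held 3 tags in all, and the depth of the enhancer tags differed between the libraries of a group (1609 and 2202 RPM with both at 3 h); its part in the result was not tested.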

How the results depend on the processing

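Of 610 rechecks of the 38 calls, 475 kept the call and 135 lost it, and none turned its direction; leaving out 1 library kept 159 of 248. RLE factors kept 37 of 38, whole-library totals 34 of 38, and DESeq2 18 of the 31 it could test. Over 45 pairs of groups, same-numbered deviations had r from -0.0513 to 0.0381. With few tags per enhancer, counting error can hide a shared deviation, so that this does not decide whether replicate numbers pair the libraries. A replicate block kept 36 of 38 calls and lost E4 with IFN-γ at 3 h (edgeR adjusted p = 0.0579) and E5 for both against IFN-γ (0.0515).

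Counts of members called moved by over 1.5 times as follows. Without a filter they were 1 (IFN-γ 3 h), 1 (IFN-γ 9 h), 2 (both against IFN-γ) and 1 (both, 15 against 3 h). With the stricter filter, which tests fewer members, they were 1 (IFN-γ 9 h), 1 (IFN-γ 15 h), 1 (CpG 3 h), 2 (CpG 9 h), 3, 2 and 2 (both at 3, 9 and 15 h), 1 and 3 (both against IFN-γ and CpG), 1 (CpG against IFN-γ), and 1 each for 15 against 3 h of IFN-γ and of both. DESeq2 gave 1, 0 and 1 (IFN-γ at 3, 9 and 15 h), 0 and 1 (CpG at 9 and 15 h), 3 and 1 (both at 3 and 15 h), 1 (both against IFN-γ) and 0 (both, 15 against 3 h). The compared groups alone gave 1 and 4 (CpG at 3 and 9 h) and 2 (both against IFN-γ). With limma on log2(RPM + 0.5) they were 4 (IFN-γ 15 h), 1 and 4 (CpG 3 and 9 h), 2 (both against IFN-γ), and 1 each for 15 against 3 h of IFN-γ and CpG. With 0.1 they were 6 and 4 (IFN-γ 3 and 15 h) and 1 each for those times, and with 2 they were 4 (IFN-γ 15 h), 1 and 5 (CpG 3 and 9 h), 2 (both against IFN-γ) and 1 (CpG, 15 against 3 h). The cause was not tested.

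With 1 library left out, counts ran from 0 to 1, 0 to 1 and 0 to 2 for IFN-γ at 3, 9 and 15 h, 0 to 0, 0 to 0 and 1 to 1 for CpG, and 2 to 4, 4 to 4 and 2 to 3 for both. They ran from 1 to 4 for both against IFN-γ, 3 to 5 for both against CpG, 2 to 6 for CpG against IFN-γ, and 0 to 1 for both at 15 against 3 h. The sum's ratio to unstimulated cells ran from 0.334 to 0.398, 0.520 to 0.619 and 0.468 to 0.609 (IFN-γ), 0.576 to 0.686, 0.570 to 0.684 and 0.461 to 0.549 (CpG), and 0.258 to 0.338, 0.263 to 0.318 and 0.491 to 0.705 (both). With TMM factors it was 0.4996, 0.633 and 0.675 (IFN-γ), 0.764 and 0.532 (CpG 3 and 15 h) and 0.361 (both 9 h). Without E14 it was 0.418 and 0.647 (IFN-γ 3 and 9 h) and 0.486 (CpG 15 h). In the narrower stretch it was 0.238, 0.403 and 0.397 (IFN-γ), 0.449 (CpG 15 h), and 0.215 and 0.428 (both 9 and 15 h). The fits with a library left out also changed which enhancers passed the filter, so that their counts of calls do not show the effect of that library alone. Few tags per enhancer and 2 libraries a group limit all of these.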
